A study of Mus musculus with 4 samples.

Results

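The 10 heat-shock chaperone genes Hspa8, Hspa1a, Hspa1b, Dnajb1, Hsph1, Hsp90aa1, Hsp90ab1, Hspd1, Hspe1 and Hspa5 were followed in single cells of mouse bone marrow. They were chosen by symbol, and all 10 were found among the 31053 genes listed in each of the 4 count matrices. The libraries were made from mononuclear cells of femur and tibia of C57BL/6 mice, taken from the interface of a Ficoll gradient. For its osteoclast cultures the study kept marrow cells overnight in medium with M-CSF before the gradient. For cell sorting it names the gradient without that step. Its section on single-cell sequencing does not say which was used. Transcripts were read from the 5′ end, and each captured molecule carried a unique molecular identifier (UMI). There were 2 groups, TLR9-/- mice, in which the gene of Toll-like receptor 9 is disrupted, and wildtype (WT) mice, with 2 libraries of 1 mouse each per genotype. The 2 genotypes were bred in separate cages, and age and sex of these mice are not given in the labels. By the study's methods the mice were profiled in 2 experiments, each with 1 mouse of either genotype. Libraries are numbered 1 and 2 within a genotype below, as in the labels, which do not state that an equal number marks one experiment.

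Chaperones hold unfolded proteins, help them to fold and hand damaged ones on for degradation. In the cytosol, Hsp70 proteins (Hspa genes) bind a client with the help of J-domain proteins (Dnaj genes) and release it with nucleotide exchange factors such as Hsph1, and Hsp90 proteins take over late folding steps. Mitochondria have their own chamber of Hsp60 and Hsp10 (Hspd1 and Hspe1), and the endoplasmic reticulum has the Hsp70 protein BiP (Hspa5). Heat and other protein damage release the transcription factor HSF1, which binds heat shock elements in front of many of these genes, whereas Hspa5 answers to unfolded protein in the endoplasmic reticulum.

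By the GENCODE annotation of GRCm38, the cytosolic Hsp70 genes are Hspa8 at chr9:40800984-40810087, Hspa1a at chr17:34969190-34972156 and Hspa1b at chr17:34956436-34959238. The co-chaperone genes are Dnajb1 at chr8:83608193-83612653 and Hsph1 at chr5:149614287-149636376, and the Hsp90 genes Hsp90aa1 at chr12:110690605-110702728 and Hsp90ab1 at chr17:45567775-45573271. The organelle chaperones are Hspd1 at chr1:55077835-55088243, Hspe1 at chr1:55088132-55091307 and Hspa5 at chr2:34771970-34777547.

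Upstream sequences of the stress-inducible pair Hspa1a and Hspa1b are shown because the genes are near copies, which limits what their counts can show. Both are the 250 bases before the start of transcription on the minus strand (RefSeq, GRCm38.p6), at chr17:34972157-34972406 for Hspa1a and chr17:34959239-34959488 for Hspa1b, with a pair of heat shock units (GAANNTTC) in capitals.
Hspa1a: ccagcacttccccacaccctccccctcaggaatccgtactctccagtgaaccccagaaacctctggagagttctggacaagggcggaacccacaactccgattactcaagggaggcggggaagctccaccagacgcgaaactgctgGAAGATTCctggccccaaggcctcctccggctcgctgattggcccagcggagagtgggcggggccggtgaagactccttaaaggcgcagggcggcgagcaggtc
Hspa1b: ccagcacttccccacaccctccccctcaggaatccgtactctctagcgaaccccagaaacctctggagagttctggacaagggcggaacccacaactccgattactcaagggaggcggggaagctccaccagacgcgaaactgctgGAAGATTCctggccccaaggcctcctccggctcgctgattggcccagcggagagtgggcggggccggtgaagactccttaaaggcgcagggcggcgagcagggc
The windows differed at 3 of 250 positions, and 82.3% of the 50-base words of the Hspa1a open reading frame also occur in that of Hspa1b. A read that fits both genes cannot be given to either and is missing from counts per gene. The reads of these libraries were longer than 50 bases and came from the 5′ end, and untranslated regions were not compared. How many reads are lost in this way is thus not known.

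Hspd1 and Hspe1 start near each other on opposite strands of chromosome 1, and a stretch of 30 bases there is shown because it holds 2 overlapping runs of 3 heat shock units (GAANNTTC followed by NNGAA, on either strand, in capitals) and lies in windows of both genes. It is at chr1:55088053-55088082, written on the strand of Hspe1, from 95 to 66 bases before the RefSeq start of that gene at 55088148. It is also upstream of 1 of the 2 RefSeq starts of Hspd1 (55087932) but downstream of the other (55088243), and by GENCODE it lies in an untranslated exon of Hspd1.
Hspe1 and Hspd1: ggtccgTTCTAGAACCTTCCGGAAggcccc
The window of Hspa5 instead held a full endoplasmic reticulum stress element (CCAAT and CCACG with 9 bases between them, in capitals), from 65 to 47 bases before the RefSeq start of the gene at 34772090. The stretch shown is at chr2:34772020-34772049 on the plus strand, which by GENCODE, with its earlier start, is in the untranslated part of exon 1.
Hspa5: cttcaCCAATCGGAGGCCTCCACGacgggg
Of the 250 bases before each of 32851 starts in the RefSeq table, 0.466% held the 3-unit motif, 6.69% held GAANNTTC, 7.17% held TTCNNGAA and 0.113% held the full stress element, on either strand. Windows were given for 7 of the 10 genes. In addition to these matches, both windows of Hsph1 held 1 TTCNNGAA, and the 2 windows of Dnajb1 held none of the 4 motifs. A match is a match of letters only.

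Across 40545 cells in the files, 39167 passed the limits on genes and mitochondrial UMIs, with 31210188 to 63958243 UMIs per library. Clustering without the chaperone and early-response genes gave 27 clusters, of which 22 could be named from marker genes as 13 classes. Of the 39167 cells, 1556 stayed in 5 unnamed clusters, and 62 stromal cells were too few for a test, which left 12 classes. Haematopoietic stem and progenitor cells are written HSPCs below. All 13 erythroid, 12 neutrophil and 9 NK-cell markers were highest in their own class. Only 3 of 10 dendritic-cell markers and 8 of 14 monocyte and macrophage markers were highest in the class given that name. The class named monocytes and macrophages is made up of clusters 1 and 18, both led by Fn1. Cluster 26, led by C1qb, C1qa and C1qc (35 cells), was among the unnamed clusters and is not part of it. Between 377 and 482 barcodes of a library also occurred in another library. Tlr9, the disrupted gene, had 41 and 48 UMIs in TLR9-/- and 120 and 97 in WT (0.817 and 0.750 against 3.84 and 2.34 CPM, UMIs per 1000000), lower but not absent, and where in the gene these reads lie was not analysed here. Cells of TLR9-/- libraries were read deeper, with a median of 2545 and 3618 UMIs per cell against 1759 and 2287 in WT. A level is given as UMIs of the gene per 1000000 UMIs of the class in a library (CPM), and levels are compared between classes, not between genes. In a sum over a class, fewer cells with the transcript and fewer transcripts per cell cannot be told apart.

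Few UMIs were assigned to either gene of the stress-inducible Hsp70 pair. Over all cells, Hspa1a had 29 and 7 UMIs in TLR9-/- and 1 and 2 in WT. Hspa1b had 76 and 6 UMIs in TLR9-/- and 9 and 16 in WT. The TLR9-/- library numbered 1 thus held 29 of 39 UMIs of Hspa1a and 76 of 107 UMIs of Hspa1b. Neither gene had enough UMIs for a test in any class, and since reads that fit both genes are left out, these counts do not show how much transcript was present. Hspa8, the constitutive cytosolic Hsp70 that also uncoats clathrin vesicles, had between 21246 and 64073 UMIs per library.

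Hspa8 was highest in monocytes and macrophages and lowest in neutrophils. Its mean level over the 4 libraries was 1236 ± 274 in monocytes and macrophages, 1202 ± 237 in dendritic cells, 1124 ± 321 in erythroid cells and 1101 ± 210.4 in HSPCs (CPM, mean ± SD, n = 4 libraries, both genotypes together). It was 935 ± 233 in granulocyte-monocyte precursors, 857 ± 196 in B-cell precursors, 776 ± 171 in T cells, 768 ± 255 in NK cells and 733 ± 152 in basophils, and 688 ± 143 in plasmacytoid dendritic cells, 517 ± 94.1 in B cells and 234 ± 48.8 in neutrophils. Neighbouring classes overlapped between libraries all along this order except B cells and neutrophils, and the spread includes the difference between genotypes described below.

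The co-chaperones had another order, led by erythroid cells. Dnajb1, a J-domain protein that stimulates the ATPase of Hsp70, was highest in erythroid cells (78.1 ± 13.1 CPM) and lowest in neutrophils (24.2 ± 1.47 CPM), and all neighbours from erythroid cells to granulocyte-monocyte precursors overlapped. Hsph1, the Hsp110 protein that exchanges the nucleotide of Hsp70, was also highest in erythroid cells (74.1 ± 30.5 CPM) and lowest in neutrophils (2.35 ± 2.18 CPM). The large spread of Hsph1 came with 1 library and is described below.

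Of the 2 cytosolic Hsp90 genes, Hsp90aa1, the more inducible one, was highest in erythroid cells and Hsp90ab1, the more constitutive one, in HSPCs. Hsp90aa1 was 1045 ± 254 CPM in erythroid cells, 739 ± 148 in HSPCs, 685 ± 99.3 in granulocyte-monocyte precursors and 650.3 ± 109 in B-cell precursors, and between 246 and 516 CPM in the means of the other classes except neutrophils, where it was 112 ± 22.7 CPM. Hsp90ab1 was 3103 ± 438 CPM in HSPCs, 2439 ± 427 in granulocyte-monocyte precursors, 2186 ± 479 in B-cell precursors and 1739 ± 327 in dendritic cells, and in neutrophils 272 ± 40.7 CPM. The mean of Hsp90ab1 in the other 7 classes lay between 1295 and 1519 CPM, with overlap between neighbours.

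The mitochondrial pair was highest in erythroid cells, and within them in 1 cluster. Hspd1, the chamber subunit Hsp60, was 405 ± 95.1 CPM in erythroid cells, 292 ± 61.3 in HSPCs, 274 ± 67 in granulocyte-monocyte precursors and 208 ± 54.1 in B-cell precursors, between 77.9 and 117 CPM in the means of 7 classes, and 26.2 ± 3.71 in neutrophils. Hspe1, the lid of the chamber, was 1227 ± 314 CPM in erythroid cells, 694 ± 98.2 in HSPCs, 602 ± 85.6 in granulocyte-monocyte precursors and 587 ± 94.3 in B-cell precursors and 41.8 ± 6.23 in neutrophils, where it was 21.4 without marked doublets. Within the erythroid class, cluster 23, led by Mt2, Car1 and C1qtnf12, had a mean of 689.6 CPM of Hspd1 and 2087 CPM of Hspe1. Cluster 11, led by Mgst3 and Slc4a1, had 156 and 460.3 CPM, and cluster 12, led by Tmcc2 and globin genes, 29.7 and 69.7 CPM.

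Hspa5, the Hsp70 of the endoplasmic reticulum, had a different order, led by basophils. It was 509.8 ± 151 CPM in basophils, 408 ± 72.5 in granulocyte-monocyte precursors, 234 ± 23.7 in plasmacytoid dendritic cells and 184 ± 40.5 in HSPCs, and the ranges of granulocyte-monocyte precursors and plasmacytoid dendritic cells did not overlap. The lowest level was again that of neutrophils, at 50.03 ± 6.69 CPM. The unnamed cluster led by the antibody genes Jchain and Igha had a mean of 612 CPM with a wide spread (SD 358, 2 of its 4 libraries with 23 and 24 cells).

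**Figure D1:**
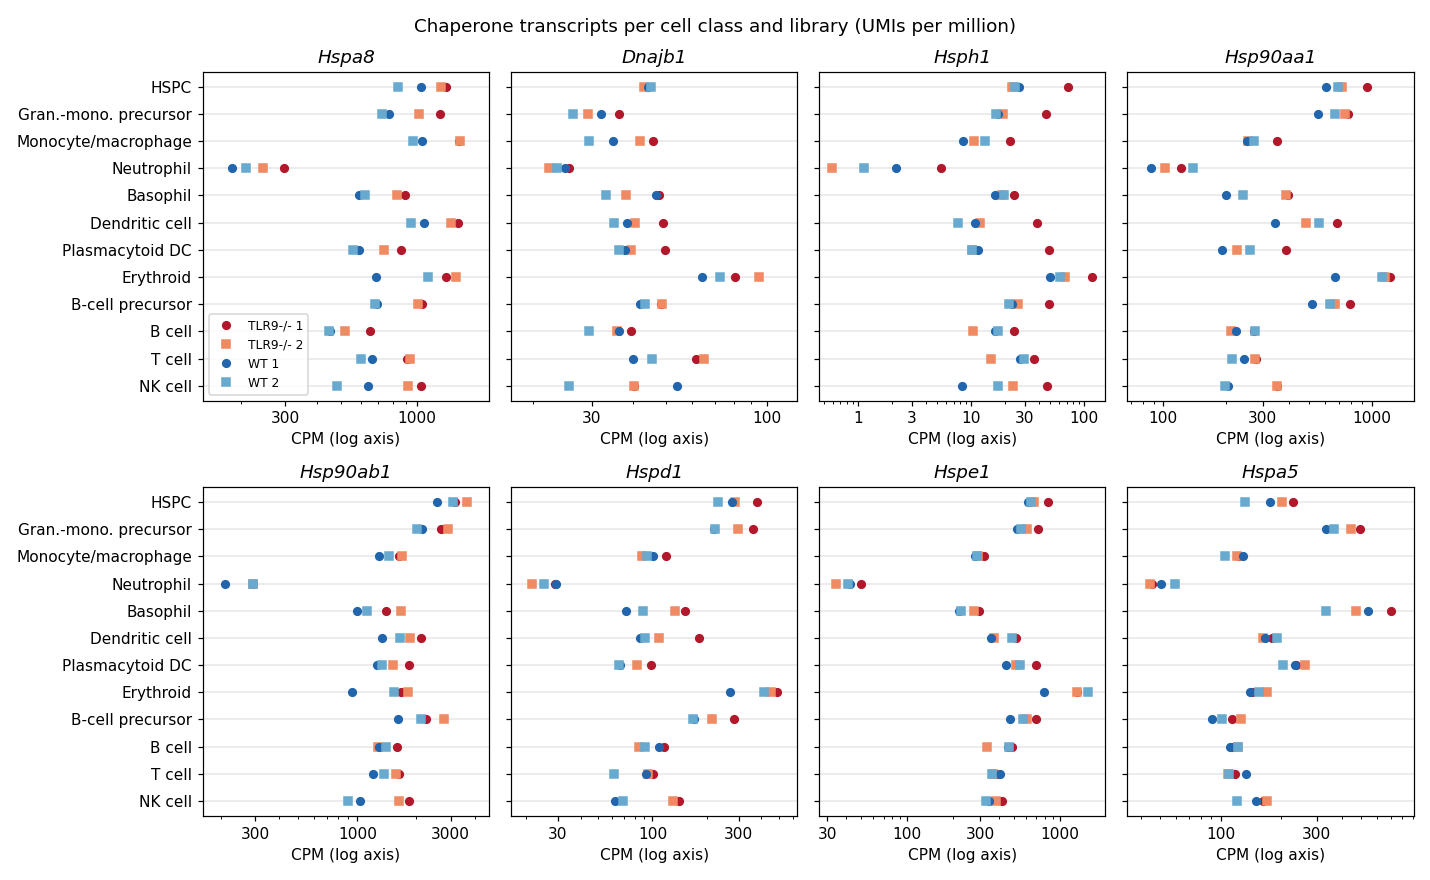
Levels of 8 chaperone genes in 12 cell classes (rows), as CPM on a log axis that differs between panels, with 1 point per library (red and orange, TLR9-/- 1 and 2, and dark and light blue, WT 1 and 2). Neutrophils have the lowest mean of every gene plotted, and both points of TLR9-/- Hspa8 lie to the right of both WT points in each row.

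Over 48 points (12 classes in 4 libraries), the gene most like each of 3 chaperones was sought among 2557 genes of at least 50 CPM on average, by Pearson's r of log2(CPM + 10). These points share libraries and depth, and r is a description. The genes nearest to Hspd1 were Timm8a1 (r = 0.958), Hsp90aa1 (0.955) and Cacybp (0.947). Those nearest to Hspa5 were Manf (0.949), Calr (0.945) and Creld2 (0.926), which work in the endoplasmic reticulum. Those nearest to Hspa8 were Rplp0 (0.918), Eif4a1 (0.906) and Acat1 (0.897). Between the members, r was 0.851 for Hspd1 and Hspe1, 0.774 for the Hsp90 pair and 0.437 for Hspd1 and Hspa5. Hspa1a was below the level for this search.

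Whether chaperone transcripts differed between genotypes was asked within each class, so that the share of a class in the marrow does not enter. Hspa8 was the one member with both TLR9-/- libraries above both WT libraries in all 12 classes. In monocytes and macrophages it was 1465 and 1479 CPM in TLR9-/- and 1040.1 and 961 CPM in WT, so that the groups did not overlap. The log2 fold change was 0.56 (standard error, SE, 0.16, unadjusted p = 0.00714, adjusted p = 0.429 over 9965 genes by edgeR's quasi-likelihood test). In B-cell precursors Hspa8 was 1048 and 1003 CPM against 694 and 682 CPM, again without overlap, with a log2 fold change of 0.55 (SE 0.17, adjusted p = 0.342). In NK cells, the class with the fewest cells tested, it was 1035 and 921 CPM against 636 and 479.9 CPM, with a log2 fold change of 0.81 (SE 0.26, adjusted p = 0.809).

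In the 9 remaining classes, the log2 fold change of Hspa8 lay between 0.39 in B cells and 0.52 in erythroid cells and granulocyte-monocyte precursors. The genotypes came closest in B cells, where the TLR9-/- libraries had 649.6 and 517 CPM and the WT libraries 452 and 448 CPM. By edgeR the unadjusted p was under 0.05 in 10 of 12 classes, and the adjusted p lay between 0.342 and 0.921. How many of all genes reached such an unadjusted p is not given here, so this count has no background. All 12 classes came from the same 4 mice and are not independent repeats. Of 3335 genes tested in all 12 classes, 0.66% (22 genes, Hspa8 among them) had both TLR9-/- libraries above both WT libraries in all 12, and over all pairs of gene and class 22.6% did so. Within clusters, which are narrower than classes, Hspa8 was higher in both TLR9-/- libraries than in both WT libraries in 24 of 25 clusters with at least 20 cells per library. Cluster 2, the one led by antibody genes, was the exception. The clusters come from the same 4 mice, and the share of all genes that did so was not computed for clusters. Clusters 4, 21 and 24, which were unnamed, held 76.2%, 81.5% and 85.3% marked doublets. Both monocyte clusters were among the 24. Cluster 1 had 1491 and 1477 CPM against 1114 and 977 CPM, and cluster 18 had 1429 and 1480.0 CPM against 967 and 941 CPM.

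Depth moved with the genotype in part. The median UMIs per cell of monocytes and macrophages were 4195.5 and 4657 in TLR9-/- and 3074 and 3763 in WT. Both TLR9-/- libraries were above both WT libraries in 3 of 12 classes. Between libraries of equal number, TLR9-/- was above WT in 11 of 12 classes for those numbered 1 and in all 12 for those numbered 2. With only cells of at least 2000 UMIs, the log2 fold change of Hspa8 was between 0.38 and 0.57 in the 12 classes. The part of depth in the remaining difference was not tested. Markers of other cells in the monocyte class were also unequal. The summed level of 12 B-cell precursor markers was 11.4 and 10.7 CPM in TLR9-/- against 70.3 and 55.8 CPM in the WT libraries, with Rag1 at 0 in 3 libraries and Bok in all 4. The sum of 13 erythroid markers was 268 and 588 CPM against 1479 and 328 CPM. Their part in the difference of Hspa8 was not tested.

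None of the 8 testable members passed an adjusted p of 0.05 in any of the 12 classes in the fit of genotype alone. When the library number was added as a block, as it would be if it marked the experiment, Hspa8 passed in 4 classes, with adjusted p of 0.0427 in B-cell precursors, 0.0073 in granulocyte-monocyte precursors, 0.0431 in monocytes and macrophages and 0.0195 in NK cells (edgeR). Of 95 pairs of member and class tested (Hsph1 had too few UMIs in NK cells), 83 had a log2 fold change above 0, 24 had an unadjusted p under 0.05 by edgeR and 21 by DESeq2, and 0 had an adjusted p under 0.05 by either. The median log2 fold change of all genes lay between -0.030 in erythroid cells and 0.0063 in NK cells. The share of all genes with an unadjusted p under 0.05 is not given here. With the block, calls among all genes rose too in granulocyte-monocyte precursors, from 45 to 770. For the other classes, genes called with the block alone are not given here. Over all settings, genes called reached at most 220 in B-cell precursors and 123 in monocytes and macrophages. In the fit of genotype alone, the share of all genes that passed was 0.215% in B cells, 0.644% in B-cell precursors, 0.185% in basophils, 0.273% in dendritic cells, 0.0713% in erythroid cells and 0.409% in granulocyte-monocyte precursors. It was 0.114% in HSPCs, 0.391% in monocytes and macrophages, 0.0834% in NK cells, 0.411% in neutrophils, 0.298% in plasmacytoid dendritic cells and 0.301% in T cells. With 2 libraries against 2, an exact permutation test of 1 gene cannot give a two-sided p below 0.333.

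Hsp90ab1 was the next most regular member, above WT without overlap in 10 of 12 classes, with log2 fold changes from 0.11 to 0.85. Hspd1 did so in 9 classes and had an unadjusted p under 0.05 by edgeR in 6, a count given without the share of all genes. Its largest log2 fold change was 1.08 in NK cells, where it was 140 and 130.2 CPM against 62.3 and 68.6 CPM. In basophils it was 151 and 133 CPM against 71.2 and 88.5 CPM, and in monocytes and macrophages 119 and 87.2 CPM against 101 and 93.6 CPM, where the groups overlapped. Hsp90aa1 was above WT without overlap in 7 classes, Hspe1 and Dnajb1 in 6, Hspa5 in 5 and Hsph1 in 4 of the 11 classes tested. Beside these counts, 22.6% of all pairs of gene and class were above WT without overlap, among genes tested in all 12 classes. Hspa5 was below WT without overlap in neutrophils, at 45.5 and 44.6 CPM against 50.8 and 59.2 CPM, and Dnajb1 in HSPCs.

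**Figure D2:**
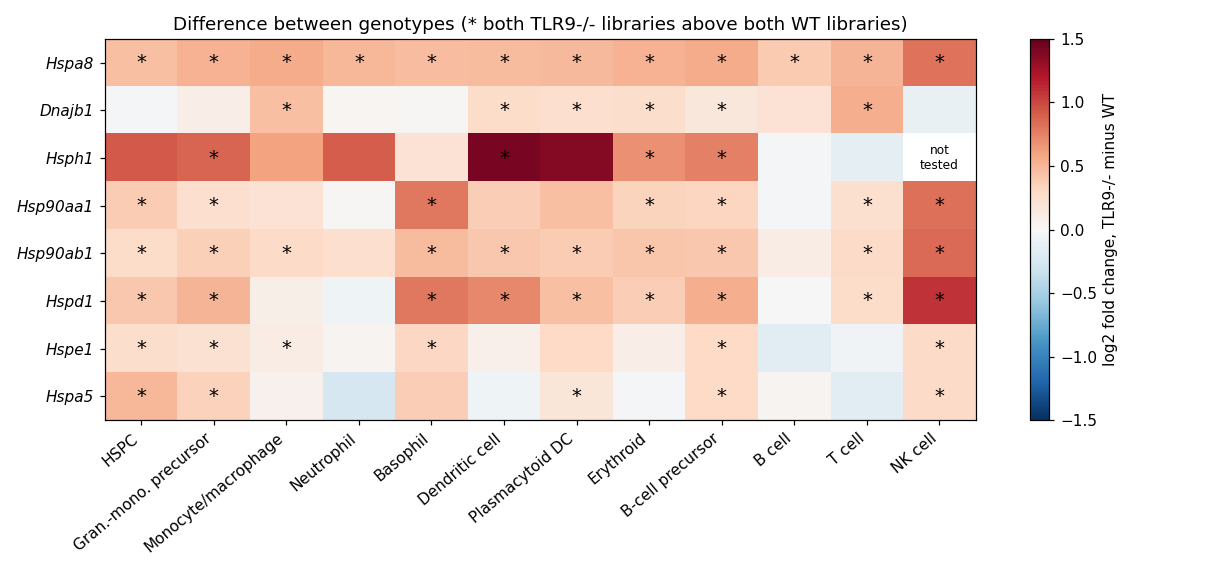
Log2 fold change between TLR9-/- and WT libraries (colour, n = 2 libraries per genotype) for 8 chaperone genes (rows) in 12 cell classes (columns), where an asterisk marks both TLR9-/- libraries above both WT libraries. Hspa8 has an asterisk in all 12 columns, and none of the 95 differences passed an adjusted p of 0.05 in the fit of genotype alone.

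In monocytes and macrophages, the class from which bone-resorbing osteoclasts can arise, the other 7 testable members were closer to 0 than Hspa8 apart from Hsph1. The log2 fold change was 0.45 for Dnajb1, 0.60 for Hsph1, 0.21 for Hsp90aa1, 0.28 for Hsp90ab1, 0.09 for Hspd1, 0.12 for Hspe1 and 0.07 for Hspa5, with adjusted p from 0.729 to 0.971 in this class. Dnajb1, at 45.7 and 41.9 CPM against 34.8 and 29.5 CPM, did not overlap between genotypes. Whether the genotype difference in this class departed from that in B-cell precursors was tested as an interaction, and none of the 8 members passed, while 0.463% of 11449 genes did. For Hspa8 the difference of the 2 log2 fold changes was 0.04 (SE 0.10, adjusted p = 0.999 by edgeR). Of the 8, 1 member, Hspd1, had an unadjusted p under 0.05 (-0.43, SE 0.12, adjusted p = 0.179 by edgeR). The share of all genes with such an unadjusted p in the interaction is not given here.

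Hsph1 was highest in 1 library, the TLR9-/- library numbered 1, in all 11 classes tested. In plasmacytoid dendritic cells it was 49.2 CPM in that library, 10.2 CPM in the other TLR9-/- library and 11.6 and 10.1 CPM in the WT libraries. In HSPCs it was 72.4 CPM in that library against 23.2 CPM in the other one and 26.4 and 24.7 CPM in WT. The log2 fold change of 0.92 in HSPCs became -0.15 without that library, that of 0.60 in monocytes and macrophages became -0.042, and that of 1.38 in plasmacytoid dendritic cells became -0.099. Hspd1 was highest in the same library in 11 of 12 classes, Hsp90aa1 and Hspe1 in 10, Hspa8 in 9 and Dnajb1 in 7. Hsp90ab1 was highest there in 5 classes and in the other TLR9-/- library in 6, and Hspa5 in 3 and 4. The share of all genes that were highest in this library is not given here. Without a filter on low counts Hsph1 passed an adjusted p of 0.05 in 5 classes, and the share of all genes that passed in this setting is not given here. Without the TLR9-/- library numbered 2 its log2 fold change was 1.12 in B-cell precursors, 1.53 in HSPCs and 2.17 in plasmacytoid dendritic cells. Hspa8 stayed at log2 fold changes of 0.22 to 0.75 without the library numbered 1.

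A set of 20 early-response genes, such as Fos, Jun, Egr1 and Dusp1, which rise within minutes of many stimuli including cell handling, was also highest in the same library in most classes. Their summed level was highest there in 9 of 12 classes and in the WT library numbered 1 in the other 3. In monocytes and macrophages it was 3133 and 1397 CPM in TLR9-/- and 2083 and 1371 CPM in WT. In all 12 classes it was higher in the TLR9-/- library numbered 1 than in that numbered 2, and in 11 of 12 it was higher in the WT library numbered 1. Hsph1 was higher in the TLR9-/- library numbered 1 than in that numbered 2 in all 11 classes tested. Between the WT libraries, however, Hsph1 was higher in that numbered 1 in only 6 of 11 classes. The part of handling in the levels of Hsph1 was not tested.

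**Figure D3:**
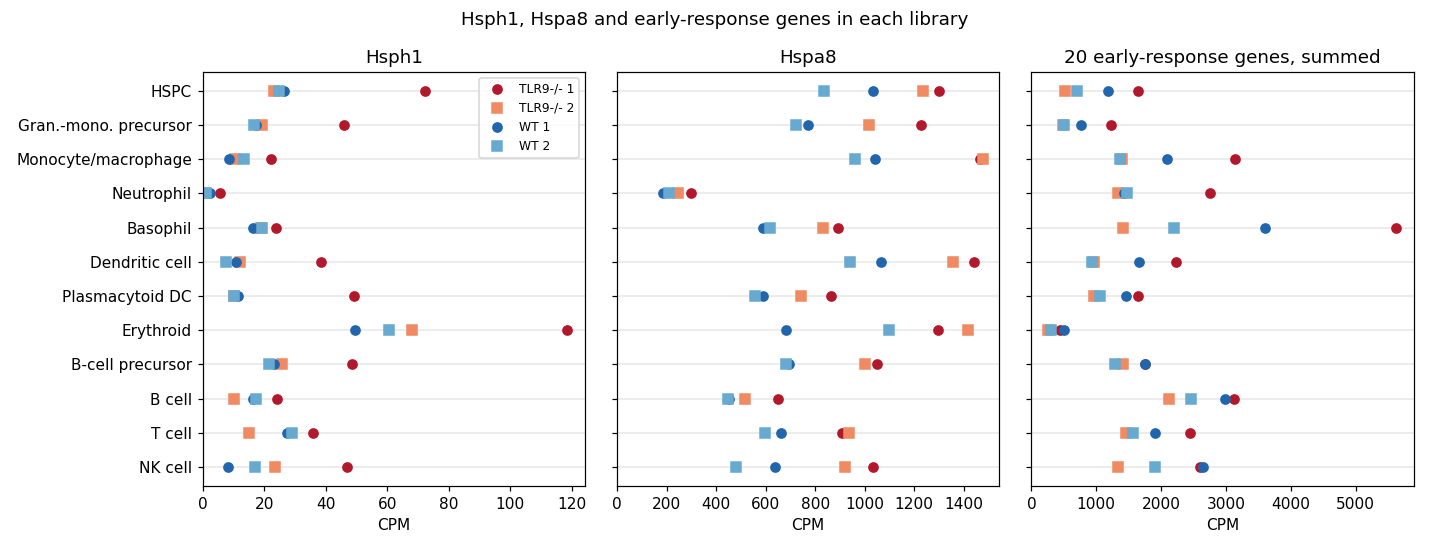
Level of Hsph1, level of Hspa8 and summed level of 20 early-response genes (CPM, linear axes from 0) in 12 cell classes, with 1 point per library in the colours of the plot of levels. Hsph1 in the TLR9-/- library numbered 1 lies to the right of the other 3 libraries in all 12 classes, NK cells included, where it was not tested, and the early-response sum is highest in that library or in the WT library numbered 1.

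Cycling cells were compared with the other cells of the same class and library, with library as a term. Cells were taken as cycling from 3 UMIs upward on a list of 30 G2/M genes, counted after thinning to 1000 UMIs, which gave 1288 of 3692 monocytes and macrophages and 2735 of 3410 erythroid cells. The share of cells next to this limit, with 2 or 3 UMIs, was 9.92% to 10.3% in monocytes and macrophages but 27.3% to 32.2% in granulocyte-monocyte precursors. Cells under 1000 UMIs were left out of both states, so that 6213 of 8564 B-cell precursors were compared. As an alternative, cells were thinned to 2000 UMIs, which leaves out all cells under 2000 UMIs. The limit stayed at 3 UMIs, so this setting changed the cells compared and the strictness of the limit as well. Cycling cells had more UMIs per cell. In monocytes and macrophages their median UMIs were 7077, 8803, 5825 and 7152 in the order TLR9-/- 1 and 2, WT 1 and 2, against 3374, 3815.5, 2674 and 3049.5 in the other cells.

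Hsp90aa1 rose in cycling cells of 4 of 7 classes. In monocytes and macrophages it was 440.3, 334, 323 and 353 CPM in cycling cells of the 4 libraries against 248, 174, 195 and 186 CPM in the others, a log2 fold change of 0.88 (SE 0.05, adjusted p = 8.24e-14 by edgeR). In neutrophils the log2 fold change was 0.98 (SE 0.10, adjusted p = 3.27e-09), in B-cell precursors 0.92 (SE 0.12, adjusted p = 6.37e-05) and in dendritic cells 0.49 (SE 0.10, adjusted p = 0.00096), higher in 4 of 4 libraries in each. It fell in erythroid cells (-0.24, adjusted p = 0.00385, but 0.17 with cells thinned to 2000 UMIs) and granulocyte-monocyte precursors (-0.12, adjusted p = 0.00872). The erythroid call was also lost at 2 UMIs for cycling (-0.14), and that in granulocyte-monocyte precursors with DESeq2 (-0.13), with thinning (-0.048) and without the WT library numbered 1 (-0.091). Hsp90ab1 likewise rose in B-cell precursors (0.43) and monocytes and macrophages (0.36) and fell in erythroid cells (-0.38) and granulocyte-monocyte precursors (-0.14). With thinning its calls in B-cell precursors (0.23) and erythroid cells (-0.16) were lost.

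Dnajb1 rose in 4 classes and fell in none of 7, with log2 fold changes of 0.75 in erythroid cells, 0.55 in dendritic cells, 0.53 in monocytes and macrophages and 0.47 in B-cell precursors. The call in dendritic cells was lost with DESeq2 (0.59) and without any 1 of 3 libraries, the TLR9-/- library numbered 2 and both WT ones (0.44 to 0.55), and that in B-cell precursors with DESeq2 (0.49). Hspa8 rose in B-cell precursors (0.37, SE 0.08, adjusted p = 0.0025), neutrophils (0.35, SE 0.08, adjusted p = 0.00135) and, by a small amount, in monocytes and macrophages (0.10, SE 0.03, adjusted p = 0.0146), and fell in erythroid cells (-0.24, SE 0.06, adjusted p = 0.0167). In erythroid cells its CPM was lower in cycling cells of 3 of 4 libraries, and in the other 3 classes it was higher in 4 of 4. In B-cell precursors the log2 ratios of its CPM were 0.29, 0.26, 0.15 and 0.20 (TLR9-/- 1 and 2, WT 1 and 2). All lay below the fitted 0.37, which uses TMM factors, whereas CPM does not. Its cycling monocytes had 1492 and 1505 CPM in TLR9-/- and 1124 and 980.2 CPM in WT, against 1436, 1452, 977 and 949 CPM in the others. The order of the genotypes was thus the same in both states, and the gap between genotypes exceeded that between states. The call in monocytes and macrophages was lost with DESeq2 (0.10), at 2 UMIs for cycling (0.020), with thinning to 2000 UMIs (0.0077) and without any 1 of 3 libraries, both TLR9-/- ones and the WT library numbered 1 (0.073 to 0.10). That in erythroid cells was lost with DESeq2 (-0.24), at 2 UMIs (-0.069), with thinning (-0.0097) and without either library numbered 2 (-0.23 and -0.16), and that in B-cell precursors with thinning (0.12).

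The falls of the mitochondrial pair depended in part on the setting. Hspe1 fell in erythroid cells (-0.53), dendritic cells (-0.30), monocytes and macrophages (-0.30) and granulocyte-monocyte precursors (-0.28) and rose in B-cell precursors (0.37), where its CPM was higher in cycling cells of 2 of 4 libraries only. With thinning the calls of Hspe1 were lost in B-cell precursors (0.22), dendritic cells (-0.094) and erythroid cells (-0.16). With DESeq2, and without the TLR9-/- library numbered 2, those in B-cell precursors (0.39 and 0.17) and dendritic cells (-0.29 and -0.24) were lost, as was the former without the WT library numbered 2 (0.34). Hspd1 fell in erythroid cells (-0.54, but -0.25 and not called with thinning) and granulocyte-monocyte precursors (-0.38). It passed as higher in cycling cells under some alternatives, in B-cell precursors at 2 UMIs (0.56), without a filter (0.34) and without the WT library numbered 1 (0.45), and at 2 UMIs and with thinning in monocytes and macrophages (0.27 and 0.21) and neutrophils (0.48 and 0.49). In granulocyte-monocyte precursors Hspd1 was 315, 258, 173 and 201 CPM in cycling cells against 399, 343, 254 and 245 CPM in the others, lower in 4 of 4 libraries (SE 0.04, adjusted p = 6.95e-09). Hspa5 fell in granulocyte-monocyte precursors (-0.15, but -0.064 and not called with thinning). In erythroid cells it was lower in 4 of 4 libraries (-0.26, adjusted p = 0.0503 by edgeR) and passed with RLE size factors (-0.27). Hsph1 rose in B-cell precursors (0.42), a call that was lost with DESeq2, with thinning and without any 1 of 3 libraries, the TLR9-/- library numbered 1 and both WT ones (0.36 to 0.48). When cells were thinned to 2000 UMIs, members called numbered 1 in place of 6 in erythroid cells, 2 in place of 6 in B-cell precursors and 3 in place of 5 in granulocyte-monocyte precursors. That setting also left out cells under 2000 UMIs, and the part of either change in the lost calls was not tested.

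Counted by class, 6 of 8 members rose in B-cell precursors, where 19.3% of all genes rose and 19.6% fell. Fitted values could exceed the ratios of CPM there. Hspa5, which was not called, was fitted at 0.14 with means of 109 CPM in cycling and 108 CPM in other cells. Among monocytes and macrophages 4 rose and 1 fell, where 20.5% rose and 20.2% fell. In neutrophils 2 rose and 0 fell (23.7% and 24.5% of all genes), and in dendritic cells 2 rose and 1 fell (13.2% and 14.0%). In erythroid cells 1 rose and 5 fell (15.6% and 13.9%), in granulocyte-monocyte precursors 0 rose and 5 fell (8.13% and 8.28%), and in HSPCs 0 rose and 0 fell (4.12% and 3.3%), where 2 had an unadjusted p under 0.05 by edgeR and 2 by DESeq2, and 0 passed after adjustment by either. All percentages are at the adjusted p, and shares of all genes at the unadjusted p are not given here.

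**Figure D4:**
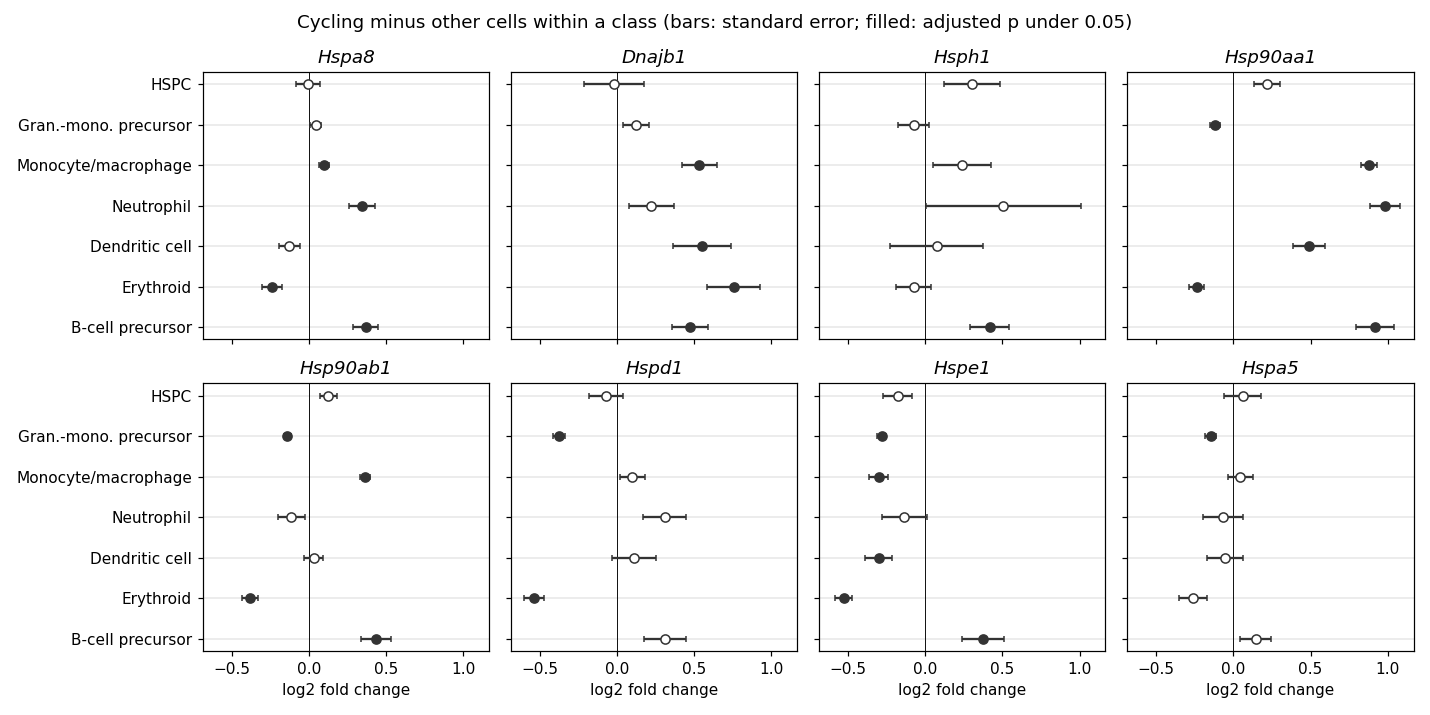
Log2 fold change of 8 chaperone genes between cycling and other cells of a class (points, with standard errors as bars, n = 4 libraries), where filled points passed an adjusted p of 0.05. Hsp90aa1 lies between 0.49 and 0.98 in 4 classes and below 0 in granulocyte-monocyte precursors and erythroid cells, and Hspe1 has filled points below 0 in 4 classes and above 0 in B-cell precursors.

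Clusters of some classes moved with the cycle. Cluster 1 held between 81.9% and 92.1% of the cycling monocytes but between 30.1% and 38.3% of all monocytes of a library. Cluster 6, led by Ngp, Camp and Lcn2, held between 92.5% and 95.9% of the cycling neutrophils, and cluster 3 between 75.9% and 78.0% of the cycling B-cell precursors. Cluster 1 had a mean of 370.4 CPM of Hsp90aa1 against 182 CPM in cluster 18. In the erythroid class, cluster 11 held 50.8% to 68.1% of the cycling cells of a library but 42.9% to 55.7% of all its cells. For cluster 12 these shares were 4.7% to 30.3% and 15.6% to 37.2%, and for cluster 23 8.8% to 31.4% and 9.1% to 32.1%. All cells here include those under 1000 UMIs. Of erythroid cells with at least 1000 UMIs, 79.8% to 80.9% were cycling, so all cells are mostly cycling cells. Cluster shares of the other cells, with which these were compared, are not given here. Cluster 23, highest in Hspd1 and Hspe1, was a smaller part of cycling than of all cells in each library. Its shares were 18.9%, 31.4%, 8.8% and 27.2% against 22.0%, 32.1%, 9.1% and 28.7% (TLR9-/- 1 and 2, WT 1 and 2). Cluster and cycling state cannot be told apart in monocytes and macrophages, neutrophils, B-cell precursors and erythroid cells. In granulocyte-monocyte precursors, cluster 8 held 47.5%, 54.3%, 51.6% and 68.6% of the cycling cells, with libraries in the same order. Of all cells it held 44.1%, 54.4%, 53.4% and 70.7%. Dendritic cells and HSPCs were 1 cluster each. In the erythroid class, cluster 23 made up 9.1% of the cells in the WT library numbered 1 and 22.0% to 32.1% in the other 3, and this library had the lowest level of Hspa8, Hspd1, Hspe1 and both Hsp90 genes in that class. Granulocyte-monocyte precursors were mostly in cluster 13 in the TLR9-/- library numbered 1 (55.9%) and mostly in cluster 8 in the other 3 (53.4% to 70.7%).

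The partners of the members gave a wider view of the folding machinery. Of 34 cytosolic partners, 28 were tested in cycling monocytes and macrophages, of which 11 rose and 1 fell, with a median log2 fold change of 0.12 beside -0.021 for all genes. Among them were the organizer Stip1 (0.67), which links Hsp70 and Hsp90, the Hsp110 protein Hspa4l (0.79), Hspa14 (0.63) and the transcription factor Hsf2 (0.62), whereas the myosin chaperone Unc45a fell (-0.76). In B-cell precursors 12 of 28 rose and 2 fell, led by Ptges3 (0.80), the Hsp90 co-chaperone p23, Hspa4l (0.76), Fkbp4 (0.74) and Stip1 (0.72), while Dnajc7 fell (-1.57). Dnajc7 also led the marker genes of cluster 14, the precursors with the fewest UMIs per cell. In erythroid cells 1 of 28 rose and 9 fell, and in granulocyte-monocyte precursors 2 of 29 rose and 6 fell.

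The cytosolic chaperonin and prefoldin subunits, which fold actin and tubulin, rose in cycling neutrophils in 10 of 13 tested genes and fell in 1, with a median of 0.41 beside 0.015 for all genes. Tcp1 rose there (0.92), as in B-cell precursors (0.57), dendritic cells (0.50) and monocytes and macrophages (0.50). Of 10 further mitochondrial chaperones and proteases, 5 rose in neutrophils and 4 in B-cell precursors, and 3 fell in each of erythroid cells and granulocyte-monocyte precursors, among them Hspa9, the mitochondrial Hsp70 (-0.56 and -0.30). Of the endoplasmic reticulum list, 6 of 24 rose in cycling monocytes and macrophages and 3 fell, beside 20.5% and 20.2% of all genes. Among those that rose were Dnajc10 (0.79) and Creld2 (0.58), and those that fell were Ppp1r15a (-1.30), Dnajb9 (-1.12) and Atf6 (-0.64), all parts of the unfolded protein response. Early-response genes fell in cycling cells of neutrophils (13 of 18), monocytes and macrophages (11 of 17, with 2 that rose) and B-cell precursors (10 of 15), but in granulocyte-monocyte precursors 5 of 16 rose and 0 fell.

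Between genotypes, none of the tested genes of these 5 lists passed in any of the 12 classes by edgeR in the fit of genotype alone. Of 1040 pairs of gene and class, 88 had an unadjusted p under 0.05 by edgeR, and by DESeq2 54 did, of which 1 passed after adjustment. The share of all genes with such an unadjusted p is not given here. Among monocytes and macrophages the median log2 fold change was 0.13 for 29 cytosolic partners, 0.13 for 13 chaperonin subunits, 0.11 for 10 mitochondrial genes, 0.10 for 24 genes of the endoplasmic reticulum and 0.45 for 18 early-response genes, beside -0.0068 for all genes. In the interaction with B-cell precursors 1 listed gene passed, Nfkbia, the inhibitor of NF-kappaB (-0.91, SE 0.15, adjusted p = 0.0029).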

How the data were processed

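UMI counts per gene and cell were deposited by the authors as 1 matrix per library, made with Cell Ranger 3.0.1 per the file headers. The labels also name STAR, Seurat 2.3.4 and the build mm10. Cells with 200 to 10000 genes and at most 10% mitochondrial UMIs were kept (the study's methods print 0.10%, read here as 10%). Cells were clustered (scanpy 1.11.5, Leiden resolution 1, 2000 variable genes without chaperone and early-response genes, 30 components, 15 neighbours), and classes named from marker lists. With the chaperone genes kept, 93.7% of cells had the same class. Marked doublets (3093 cells) were removed only as an alternative.

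UMIs were summed per library and class and tested with edgeR 4.0.16 in R 4.3.3 (quasi-likelihood test, TMM factors, Benjamini-Hochberg over all genes of a class), for classes of at least 20 cells per library, with genotype alone, with library as a term for cycling state, or as an interaction with library. The study tested cells, which are not replicates. With 2 mice per genotype, p-values set a difference against variation between these libraries, estimated with information shared between genes. Genotype and cage cannot be told apart. DESeq2 1.42.0 and the other alternatives are given below. The test scripts were tested on simulated data. The named genes are all members, at most 5 of each pathway list that passed with the largest change, and the 3 genes most like 3 members. Members, lists and markers were chosen with earlier results of these data known. Gene positions are from GENCODE, and promoter windows from RefSeq.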

Additional observations from a re-analysis of the deposited data

Results flagged for a closer look

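Between cycling and other cells, 3 members moved one way in all 4 libraries of some classes and the opposite way in all 4 libraries of others, and the differences between classes were not tested. In erythroid cells the share of clusters also differed with the cycling state, and its part in these values was not tested. For Hsp90aa1, 5 classes were higher and 2 lower in cycling cells in every library, and the log2 fold changes farthest apart were 0.98 in neutrophils and -0.24 in erythroid cells, a difference of 1.22. For Hsp90ab1, 3 classes were higher and 2 lower, with 0.43 in B-cell precursors and -0.38 in erythroid cells, a difference of 0.81. For Hspd1, 1 class was higher and 2 lower, with 0.31 in neutrophils, which did not pass (adjusted p = 0.0709 by edgeR), and -0.54 in erythroid cells, a difference of 0.84. With cells thinned to 2000 UMIs, the value of Hsp90aa1 in erythroid cells was 0.17, that of Hsp90ab1 was 0.23 in B-cell precursors and -0.16 in erythroid cells, and that of Hspd1 in erythroid cells was -0.25, none of them called, whereas Hsp90aa1 (1.34) and Hspd1 (0.49) in neutrophils were.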

How the results depend on the processing

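Each choice was changed in turn. None of the 8 testable members passed between genotypes in any class with RLE size factors, with DESeq2, without marked doublets, with cells of at least 2000 UMIs only or without both cycling cells and cells under 1000 UMIs. Without a filter on low counts 1 member, Hsph1, passed in each of B-cell precursors, dendritic cells, granulocyte-monocyte precursors, HSPCs and plasmacytoid dendritic cells. Genes called in this setting alone are not given here. Over all settings, genes called reached at most 220 in B-cell precursors, 770 in granulocyte-monocyte precursors, 169 in HSPCs and 172 in plasmacytoid dendritic cells. Without the TLR9-/- library numbered 2, members called ranged from 0 to 1 in B-cell precursors, HSPCs and plasmacytoid dendritic cells (Hsph1 again, 1.12, 1.53 and 2.17), and no other omission gave a call. All 145 values of Hspa8 over classes and settings were above 0, from 0.22 to 1.07.

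The study's methods describe 2 experiments with 1 mouse of either genotype each. With the library number as a replicate block, Hspa8 passed in 4 of 12 classes. Members called under the block numbered 1 in B-cell precursors, 3 in granulocyte-monocyte precursors (with Hspd1 and Hsph1), 1 in monocytes and macrophages, 2 in NK cells (with Hsp90ab1) and 1 in plasmacytoid dendritic cells (Hsph1), and genes called in granulocyte-monocyte precursors rose from 45 to 770. For the other classes, genes called with the block alone are not given here. Over all settings, genes called reached at most 77 in NK cells and 172 in plasmacytoid dendritic cells, against 3 of 3596 and 26 of 8729 with genotype alone. Genes called between genotypes moved by over 1.5 times in each class under at least 1 setting, from 39 to between 31 and 123 in monocytes and macrophages, from 68 to between 13 and 220 in B-cell precursors and from 7 to between 0 and 223 in erythroid cells. Deviations of same-numbered libraries from their group means correlated at 0.197 to 0.588 over 3335 genes, but 2 pairs do not establish that the numbers mark the experiments, and the labels do not say so.

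In cycling cells, members called fell to 3 with DESeq2 and 2 with thinning to 2000 UMIs in B-cell precursors, to 1 with DESeq2 in dendritic cells (1 to 3 with 1 library left out), and with thinning to 1 in erythroid cells and 3 in granulocyte-monocyte precursors. In HSPCs 1 passed at 2 UMIs for cycling and 1 with thinning. Thinning, which also left out cells under 2000 UMIs, turned the sign of Hsp90aa1 in erythroid cells (0.17), of Hspa5 in B-cell precursors (-0.040), dendritic cells (0.061) and neutrophils (0.10, and 0.012 at 2 UMIs) and of Hsph1 in granulocyte-monocyte precursors (0.13). The genotype difference turned for Hspd1 in monocytes and macrophages without cycling cells and cells under 1000 UMIs (-0.023), and for Hsph1 in B cells with DESeq2 (0.0094) and with cells of at least 2000 UMIs (0.093) and in T cells without cycling cells and cells under 1000 UMIs (0.071) or without marked doublets (0.078). The cause was not tested.

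With 1 library left out, signs turned in the genotype comparison over ranges of -0.040 to 0.43 in monocytes and macrophages for Hsp90aa1, -0.082 to 0.24 in monocytes and macrophages for Hspa5, -0.16 to 0.31 in monocytes and macrophages for Hspd1 and -0.69 to 0.52 in B cells, -0.15 to 1.53 in HSPCs, -0.042 to 1.05 in monocytes and macrophages, -1.29 to 1.93 in neutrophils, -0.099 to 2.17 in plasmacytoid dendritic cells and -0.92 to 0.35 in T cells for Hsph1. In cycling cells the ranges were -0.023 to 0.068 in dendritic cells for Hsp90ab1, -0.12 to 0.068 in dendritic cells, -0.096 to 0.14 in monocytes and macrophages and -0.24 to 0.061 in neutrophils for Hspa5, -0.021 to 0.10 in granulocyte-monocyte precursors for Hspa8, -0.10 to 0.34 in dendritic cells for Hspd1, -0.28 to 0.054 in neutrophils for Hspe1 and -0.029 to 0.39 in dendritic cells and -0.30 to 0.015 in granulocyte-monocyte precursors for Hsph1. In the interaction they were -0.21 to 0.025 for Hsp90ab1, -0.41 to 0.030 for Hspa5, -0.040 to 0.12 for Hspa8 and -0.45 to 0.33 for Hsph1. Small changes can be missed at this depth and number of libraries: in simulated monocytes and macrophages with 9945 genes tested, 43 of 96 genes changed by 1 on the log2 scale were recovered, and 93 of 97 changed by 2. The simulation gave every gene the same fixed dispersion, which was not estimated from these data, and the shares recovered hold for that setting only.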
